A study of Homo sapiens with 8 samples.

Results

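Of 10 purinergic and mechanosensory signalling genes in SV-HUC1 urothelial cells, 8 were measured well enough to test and none passed a test across all genes after glucose oxidase, while TRPV4 and P2RX7 were too low to judge. The 10 genes were chosen by name from the 58735 genes of the deposited count table: the ATP-gated channels P2RX4, P2RX5 and P2RX7, the ATP and UTP receptor P2RY2, the ATP release channel PANX1, the AMP-cleaving enzyme NT5E, the adenosine receptor ADORA2B, and the channels PIEZO1, TRPV4 and TRPM7. SV-HUC1 is an established human urothelial line immortalised with SV40, so every culture of both groups carries the viral oncogene. The tested cultures received glucose oxidase, which turns glucose and oxygen into gluconolactone and hydrogen peroxide, at 20 mU per ml of medium for 24 h (n = 4), and the controls were left untreated for the same time (n = 4). No culture with peroxide alone or with inactive enzyme is among the samples, and nothing in the labels says whether equal replicate numbers share an experiment.

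Urothelial cells release ATP when they are stretched, partly through pannexin channels, and the ATP acts on P2X channels and P2Y receptors of the same and neighbouring cells and of sensory nerves below them. Outside the cell, ectonucleotidases shorten ATP to AMP, NT5E (CD73) cleaves AMP to adenosine, and adenosine acts on its own receptors, of which ADORA2B is the low-affinity one coupled to cAMP. PIEZO1 opens on membrane stretch, TRPV4 responds to swelling, warmth and lipid messengers, and TRPM7 joins a cation channel to a kinase, and all of these let calcium into the cell.

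Library totals ran from 21437267 to 27183692 counts in treated cultures and from 21653952 to 23543702 in controls. In both groups, replicates 3 and 4 stood apart from replicates 1 and 2 across the transcriptome. No label gives this division, which was found in the expression values, and the pairs are called replicate sets here. Deviations from the group mean correlated across genes at 0.503 to 0.678 between libraries of the same number, and also at 0.443 to 0.652 between different numbers inside these sets. Epithelial identity was checked on 11 markers, of which KRT7, a keratin of simple and urothelial epithelium, ran from 866.2 to 1227.8 CPM (library-size-scaled counts, TMM) in treated cultures and from 990.0 to 1898.9 CPM in controls. KRT5, a basal keratin, fell (log2 change -0.75, edgeR with the replicate number as a block, adjusted p = 0.00166) and GATA3, a urothelial transcription factor, rose (0.52, adjusted p = 0.0191). Uroplakins, plaque proteins of umbrella cells, were unevenly present. UPK1B ran from 56.9 to 108.8 CPM in treated cultures and from 54.1 to 186.8 CPM in controls, and UPK2 from 4.67 to 10.5 CPM in treated cultures and from 6.42 to 11.6 CPM in controls. UPK1A reached at most 0.121 CPM in treated cultures and 0.173 CPM in controls, and UPK3A was at 0 in all libraries except 1 control with 0.111 CPM. The 11 markers summed to 1950 to 2190 CPM in treated cultures and 2290 to 3100 CPM in controls, and the part of this difference in the results below was not tested. KRT7 was the largest part of the sum in every library and did not pass (blocked edgeR adjusted p = 0.211). Single markers went both ways, and of 9 tested 1 was called higher and 1 lower. EPCAM (log2 change -0.36, adjusted p = 0.116) and CDH1 (0.35, adjusted p = 0.129) did not pass. In bulk RNA, fewer cells of a kind and less RNA per cell cannot be told apart. Markers of leukocytes (4) summed to at most 0.506 CPM in treated cultures and 0.192 CPM in controls. Markers of fibroblasts (6) summed to 14.4 to 26.2 CPM in treated cultures and 16.3 to 26.1 CPM in controls. Nearly all of this was COL1A1 (14.3 to 26.2 CPM in treated cultures and 15.9 to 25.6 CPM in controls). The low-count filter kept 1 of 6 fibroblast, 2 of 4 smooth muscle, 1 of 3 endothelial and 2 of 4 neuron markers. None of those kept passed in the blocked fit, and the others were not tested.

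Per unit of length, the adenosine receptor had the highest mean of the 10 transcripts. On the authors' FPKM scale (fragments scaled by summed exon length and by library, the only scale used here between genes), ADORA2B averaged 27.1 FPKM over the 8 libraries. PANX1 followed at 14.8 FPKM, PIEZO1 at 14.4 FPKM, NT5E at 10.5 FPKM and TRPM7 at 7.63 FPKM. The library ranges of each neighbouring pair in this stretch of the order overlapped, so the ranges give these 5 no strict order. PIEZO1 was above ADORA2B in treated culture 2 (20.4 against 16.2 FPKM). The lowest ADORA2B value, 16.2 FPKM, lay above the highest of NT5E (15.3 FPKM) and of TRPM7 (10.3 FPKM). P2RY2 at 3.65 FPKM, P2RX4 at 2.26 FPKM and P2RX5 at 1.17 FPKM came next, and here no neighbouring ranges overlapped. TRPV4 at 0.110 FPKM and P2RX7 at 0.0607 FPKM formed the bottom of the order, with overlapping ranges.

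**Figure D1:**
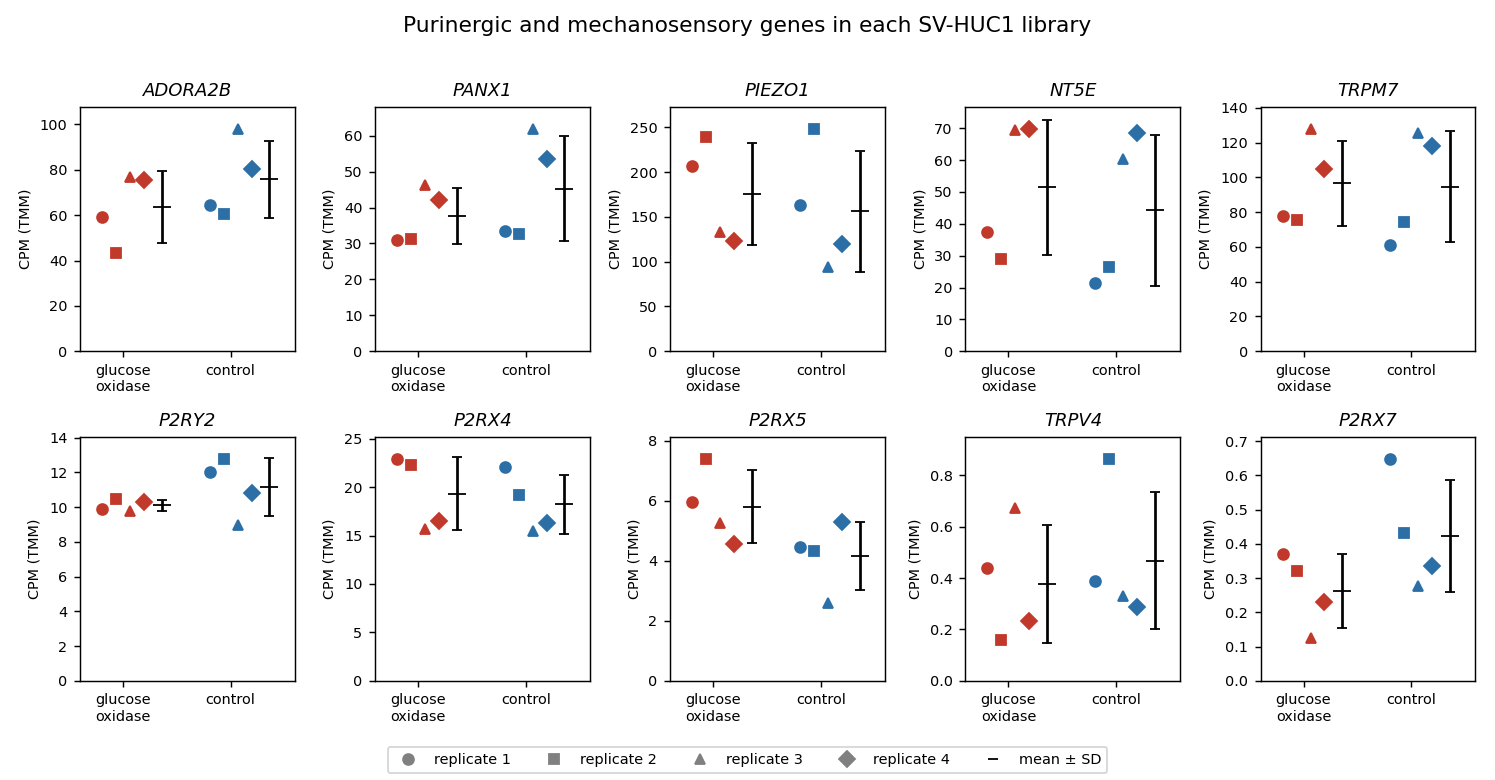
TMM-scaled CPM of each of the 10 genes (vertical axes, each from 0) in glucose oxidase-treated cultures on the left and controls on the right, with 1 marker per replicate number and the mean ± SD (n = 4) in black. The groups overlap in every panel, and replicates 3 and 4 lie apart from replicates 1 and 2 for ADORA2B, PANX1, PIEZO1, NT5E, TRPM7 and P2RX4.

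The comparison of treated with control cultures asks which of these signalling genes differ after glucose oxidase. The low-count filter kept 8 of the 10 members. With the group as the only term, edgeR called 0 of the 8 members and 0 of 17413 genes (0%) at an adjusted p below 0.05. In that fit 1284 genes and 0 members had an unadjusted p below 0.05. DESeq2, also without the block, placed 38 genes higher and 50 lower, with no member among them. A fit that takes the replicate number as a block called 14.5% of all genes (7.51% higher and 6.97% lower, edgeR) and again 0 of the 8 members. Member adjusted p-values ran from 0.683 to 0.979 without the block and from 0.132 to 0.831 with it. The median fitted log2 change was 0.07 over the 8 members and -0.01 over all genes in the blocked fit. With a term for the replicate sets in its place, 6.79% of genes and 0 members passed, and DESeq2 with the block called 17.5% of the genes it tested and 0 members. Below, "rose" and "fell" are said only of genes that passed in the blocked fit.

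The blocked fit, which treats equal replicate numbers as shared although no label says so, also gives intervals for these 8 transcripts. Its 95% intervals, which are per gene and not adjusted for the number of genes, lay between 0.5-fold and 2-fold for all 8 members, and inside 1.5-fold in both directions for 7 of them. The exception was P2RX5, whose interval ran from 1.03-fold to 1.91-fold. Without the block the intervals were wider and 6 of 8 lay within 2-fold, with upper ends of 2.20-fold for NT5E and 2.08-fold for P2RX5. A missing call is thus not a sign of equal expression.

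**Figure D2:**
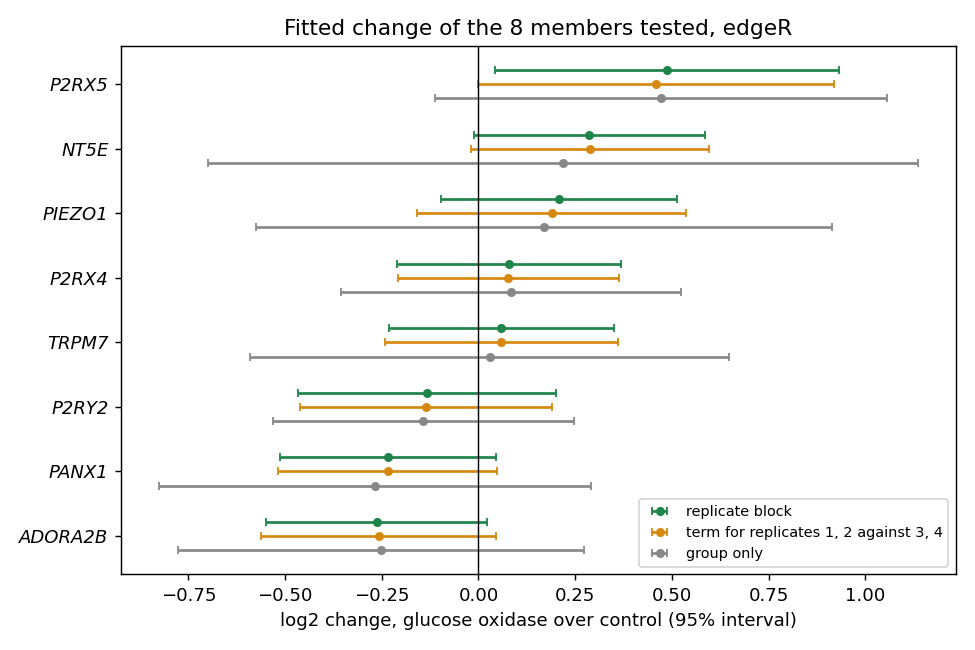
Fitted log2 change (glucose oxidase over control, horizontal axis) of the 8 members tested, with 95% intervals, in edgeR with the replicate number as a block (green), with a term for the replicate sets (orange) and with the group alone (grey). Point estimates of a gene are close between fits, and the group-only interval is widest for NT5E (-0.70 to 1.14) and narrow for P2RY2 (-0.53 to 0.25).

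PANX1 (ENSG00000110218, chromosome 11, 94128928 to 94181972, GRCh38, plus strand) forms the plasma membrane channel through which ATP leaves the cell. It was at 30.8, 31.2, 46.3 and 42.2 CPM in treated cultures 1 to 4, against 33.4, 32.5, 61.8 and 53.5 CPM in controls 1 to 4. Each treated library was below the control of its number, but the groups overlapped, because libraries 1 and 2 of both groups were the lowest. The mean was 37.6 ± 7.82 CPM in treated cultures and 45.3 ± 14.7 CPM in controls (SD, n = 4 each), a log2 change of -0.23 (SE 0.14, blocked edgeR adjusted p = 0.268).

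P2RY2 (ENSG00000175591, chromosome 11, 73218298 to 73236352, plus strand) is the Gq-coupled receptor that turns extracellular ATP and UTP into calcium release from stores. It was at 9.88, 10.4, 9.79 and 10.3 CPM in treated cultures, against 12.02, 12.8, 8.96 and 10.8 CPM in controls. The treated libraries lay close together inside the range of the controls, with an SD of 0.320 CPM in treated cultures and 1.66 CPM in controls. The log2 change was -0.13 (SE 0.16, blocked edgeR adjusted p = 0.642).

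P2RX4 (ENSG00000135124, chromosome 12, 121209857 to 121234106, plus strand) is a calcium-permeable ATP-gated channel found on the surface and in lysosomes. It was at 22.9, 22.3, 15.7 and 16.5 CPM in treated cultures, against 22.1, 19.1, 15.4 and 16.2 CPM in controls. All 4 treated libraries were above the control of their number by a small margin, and the groups overlapped. The log2 change was 0.08 (SE 0.14, blocked edgeR adjusted p = 0.767).

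P2RX5 (ENSG00000083454, chromosome 17, 3672199 to 3696404, minus strand), a further subunit of this channel family, had the largest fitted change among the 8 members. It was at 5.97, 7.39, 5.25 and 4.55 CPM in treated cultures, against 4.45, 4.32, 2.60 and 5.29 CPM in controls. Treated cultures 1 to 3 were above their controls and treated culture 4 was below its own, so the groups overlapped. The mean was 5.79 ± 1.22 CPM in treated cultures and 4.17 ± 1.13 CPM in controls (SD, n = 4 each). The log2 change of 0.49 (SE 0.22) had an unadjusted p of 0.0326 in the blocked edgeR fit and an adjusted p of 0.132. Of all genes tested, 28.9% had an unadjusted p below 0.05 in that fit. P2RX5 overlaps the readthrough gene P2RX5-TAX1BP3 on the same strand over 23996 bases (5 to 30 counts per library), so its count depends on how shared reads were assigned, a setting not stated by the sources at hand.

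NT5E (ENSG00000135318, chromosome 6, 85449584 to 85495791, plus strand) encodes CD73, the surface enzyme that makes adenosine from AMP. It was at 37.3, 29.1, 69.6 and 69.7 CPM in treated cultures, against 21.6, 26.3, 60.5 and 68.6 CPM in controls. Treated libraries were above the control of their number in all 4 cases, by log2 differences from 0.02 in replicate 4 to 0.79 in replicate 1. The log2 change was 0.29 (SE 0.15, blocked edgeR adjusted p = 0.195). Without the block its SE was 0.41 and its adjusted p 0.886. Leaving out replicate 1 put the blocked log2 change at 0.14.

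ADORA2B (ENSG00000170425, chromosome 17, 15944917 to 15975746, plus strand), the receptor for the adenosine that CD73 makes, was at 59.1, 43.2, 77.0 and 75.4 CPM in treated cultures, against 64.7, 60.5, 97.9 and 80.4 CPM in controls. Treated libraries were below the control of their number in all 4 cases, and the groups overlapped. The log2 change was -0.26 (SE 0.14, blocked edgeR adjusted p = 0.213). Of the 8 members, 2 were above the control in all 4 numbers and 2 below in all 4. Among all genes tested these shares were 16.9% and 17.1%.

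PIEZO1 (ENSG00000103335, chromosome 16, 88715338 to 88785220, minus strand), the stretch-gated cation channel, was at 207.0, 239.4, 133.1 and 123.0 CPM in treated cultures, against 162.9, 248.1, 94.1 and 119.8 CPM in controls. Treated cultures 1, 3 and 4 were above their controls and treated culture 2 was below. The log2 change was 0.21 (SE 0.15, blocked edgeR adjusted p = 0.385). Annotated antisense transcripts overlap PIEZO1, with at most 98 counts per library, as does CTU2 over 49 bases on the other strand, and whether strand was used in counting is not stated by the sources at hand.

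TRPM7 (ENSG00000092439, chromosome 15, 50552473 to 50686815, minus strand), the magnesium and calcium channel with a kinase domain, was at 77.8, 75.6, 127.7 and 104.8 CPM in treated cultures, against 60.9, 74.1, 125.3 and 118.1 CPM in controls. Its log2 change was 0.06 (SE 0.14, blocked edgeR adjusted p = 0.831), and treated culture 4 was below its control while the others were above. PIEZO1 and TRPM7 belong to the longest 10% of genes tested, whose median log2 change was 0.18, against -0.19 in the shortest 10%. With an offset for gene length the log2 change was 0.04 for PIEZO1 and -0.12 for TRPM7. ADORA2B and PANX1 are short, in a 10% bin of lengths with a median log2 change of -0.11, and stood at -0.18 and -0.16 with that offset. The offset left 12.6% of genes and 0 members called, with P2RX5 lowest at an adjusted p of 0.141.

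**Figure D3:**
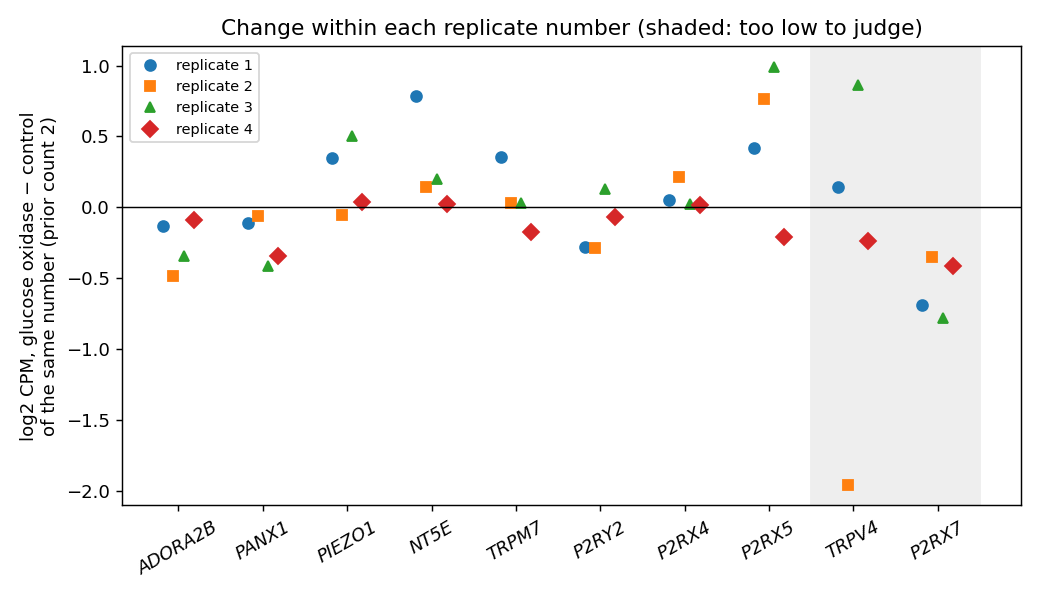
Log2 CPM of the treated culture minus that of the control with the same replicate number (vertical axis, prior count 2), for the 10 genes in order of FPKM (horizontal axis). All 4 points lie below 0 for ADORA2B, PANX1 and P2RX7 and above 0 for NT5E and P2RX4, and the scatter is widest for TRPV4, which with P2RX7 is shaded as too low to judge.

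TRPV4 and P2RX7 were too low to judge. TRPV4 (ENSG00000111199, chromosome 12, 109783085 to 109833401, minus strand) had 13, 4, 16 and 6 counts in treated cultures and 9, 22, 6 and 6 counts in controls. P2RX7 (ENSG00000089041, chromosome 12, 121132819 to 121188032, plus strand), the ATP-gated channel known in immune cells for inflammasome activation and pore formation, had 11, 8, 3 and 6 counts in treated cultures and 15, 11, 5 and 7 counts in controls. The groups overlapped for both, and TRPV4 summed to 39 counts in treated cultures and 43 in controls, P2RX7 to 28 in treated cultures and 38 in controls. With no filter on low counts and the replicate block, edgeR gave TRPV4 a log2 change of -0.31 (SE 0.55, adjusted p = 0.896) and P2RX7 one of -0.66 (SE 0.61, adjusted p = 0.896). P2RX7 was below the control in all 4 numbers, at no more than 15 counts per library.

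P2RX7 and P2RX4 lie 21824 bases apart on chromosome 12, and P2RX4 stood at 37.3 times the FPKM of P2RX7. This ratio rests on 3 to 15 counts of P2RX7 per library. The RefSeq promoters of P2RX7 and P2RX4 differ in composition, and whether this bears on their levels was not tested. Promoters are shown because they set a member too low to judge beside others. RefSeq (GRCh38.p14) gave a promoter for 7 of the 10 members, not for P2RY2, P2RX5 and TRPV4. In the 250 bases before the RefSeq start, the dinucleotide CG (read the same on both strands) occurred 4 times for P2RX7. Of these, 3 lie in the stretch printed, and 34.3% of 35114 promoters had as few or fewer. CG occurred 27 times for P2RX4, 19 times for PANX1, 28 for NT5E, 33 for ADORA2B, 36 for PIEZO1 and 38 for TRPM7. The median over all promoters was 11, and 93.9% of them hold at least 1. By the gene coordinates of the deposited table, the stretches of P2RX4 and NT5E lie wholly inside the gene. Those of P2RX7, ADORA2B and TRPM7 lie partly inside it, so upstream and gene sequence are mixed in this comparison. The P2RX7 stretch up to the gene start of the deposited table (chr12:121132626-121132818, plus strand) and the PIEZO1 promoter (chr16:88785221-88785470, minus strand) are printed with each CG in capitals.
P2RX7: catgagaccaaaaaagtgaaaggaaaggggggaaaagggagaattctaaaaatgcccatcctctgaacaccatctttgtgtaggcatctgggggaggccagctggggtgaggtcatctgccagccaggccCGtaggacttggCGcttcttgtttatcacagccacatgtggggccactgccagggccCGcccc
PIEZO1: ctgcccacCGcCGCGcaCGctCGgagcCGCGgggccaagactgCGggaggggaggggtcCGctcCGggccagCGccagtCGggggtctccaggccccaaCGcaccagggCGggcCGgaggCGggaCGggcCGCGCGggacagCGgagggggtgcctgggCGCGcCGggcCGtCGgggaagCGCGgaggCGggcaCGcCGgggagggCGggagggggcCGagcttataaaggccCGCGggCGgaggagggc
The counts of CG describe these letters and say nothing of methylation or of factor binding, which were not measured.

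The members were also described by replicate set, beside their treatment changes. NT5E averaged 67.1 CPM over the 4 libraries of replicates 3 and 4 (60.5 to 69.7 CPM) and 28.6 CPM over those of replicates 1 and 2 (21.6 to 37.3 CPM), a log2 ratio of 1.23. TRPM7 (log2 ratio 0.72), PANX1 (0.67) and ADORA2B (0.54) were likewise higher in every library of replicates 3 and 4. PIEZO1 ran the other way, at 117.5 CPM in replicates 3 and 4 (94.1 to 133.1 CPM) and 214.3 CPM in replicates 1 and 2 (162.9 to 248.1 CPM), a log2 ratio of -0.87. P2RX4 was also lower in replicates 3 and 4 (-0.44), without overlap. For P2RY2 (-0.18) and P2RX5 (-0.32) the sets overlapped. The sets were thus apart for 6 of 8 members, and for 36.6% of all genes tested. The log2 ratio between sets, taken from mean CPM, was larger in size than the fitted treatment change for all tested members except P2RX5. For P2RY2 the margin was narrow (-0.18 against -0.13). The share of all genes with a larger ratio between sets was not computed, so this cannot be read as particular to the members. No test is given, since the sets were found in these expression values.

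**Figure D4:**
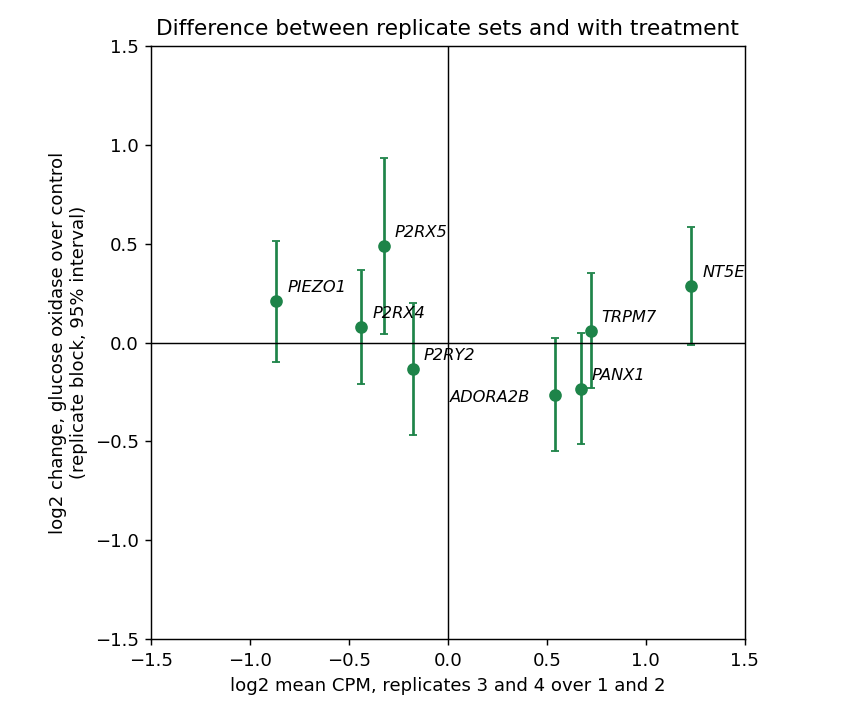
Log2 ratio of mean CPM in replicates 3 and 4 over replicates 1 and 2 (horizontal axis) and log2 change with glucose oxidase in the blocked edgeR fit with its 95% interval (vertical axis, same scale) for the 8 members tested. NT5E (1.23) and PIEZO1 (-0.87) lie at the ends of the horizontal axis, while treatment changes stay between -0.26 and 0.49.

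Treatment changes were also fitted inside each set, where libraries are few and no interval is given, so their size is uncertain. NT5E had a fitted log2 change of 0.11 in the set of replicates 3 and 4, against 0.47 in the other set, PANX1 one of -0.38 in replicates 3 and 4 against -0.09, and P2RX5 one of 0.30 against 0.60. P2RY2 stood at 0.02 in replicates 3 and 4 against -0.29, and TRPM7 at -0.07 against 0.19. The edgeR test of the difference between sets passed for 0 of 8 members (adjusted p = 0.775 to 0.978) and for 0.23% of all genes.

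Some genes around the 10 members passed with the replicate block, and none did without it. The wider lists held 100 other genes of nucleotide and mechanical signalling, of which 69 were tested, and in the blocked edgeR fit 11 rose, 3 fell and 55 did not pass, against 7.51% and 6.97% of all genes. Their median log2 change was 0.21, against -0.01 over all genes. The lists were not matched for gene length and were chosen with earlier results of these data known, so these counts are no test of the lists. In the blocked fit, 1.43% of the shortest 10% of all genes tested and 19% of the longest 10% were called higher. The shares called lower were 9.29% and 2.3%. In the fit without a block 0 of the 69 passed and the adjusted p of these 14 genes ran from 0.561 to 0.734. In the blocked fit without 1 replicate number at a time, the calls of PANX2, LRRC8A, LRRC8B, DPP4, PKD1 and ITPR3 held in all 4 fits. ENTPD2 held in 3 of the 4, ENTPD8, TRPV3 and ANO1 in 2, SLC28A3, PLCB4 and ITPR1 in 1, and STIM1 in 0. With the term for the replicate sets in place of the block, PANX2 and DPP4 alone held in all 4 fits, and they were the only 2 of the 14 still called without replicate 3.

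**Figure D5:**
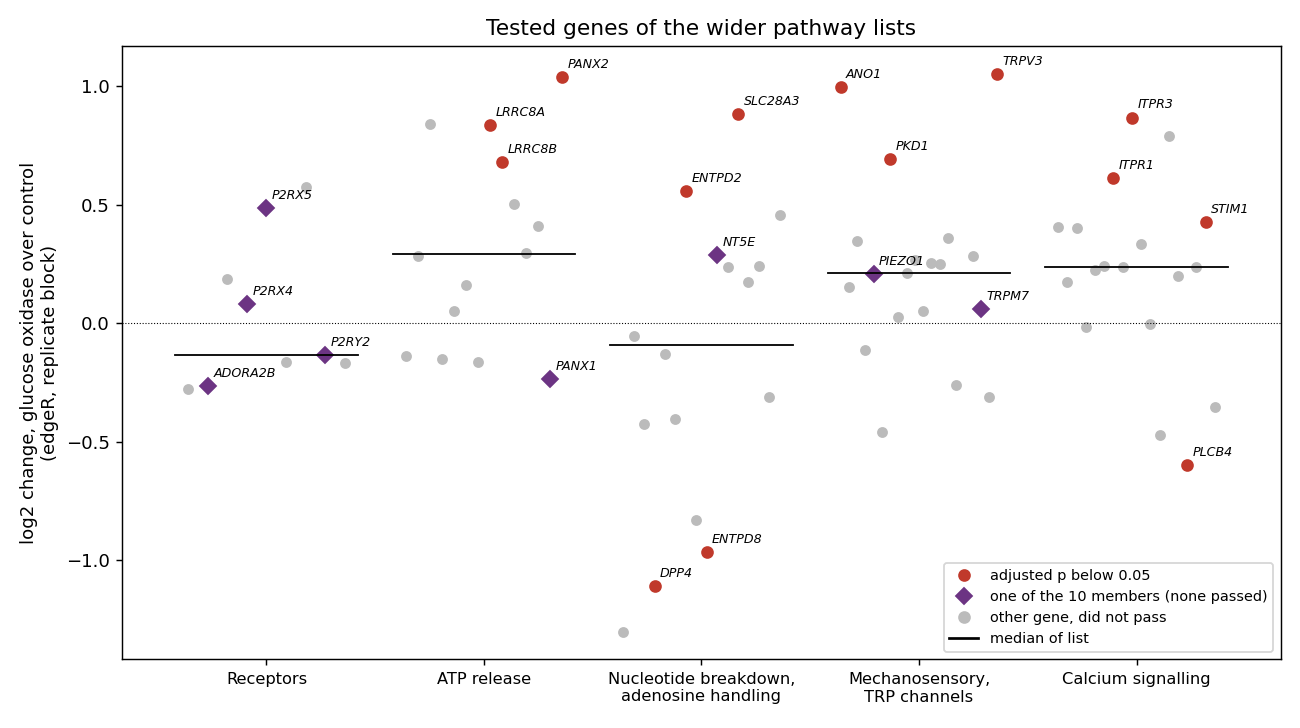
Log2 change with glucose oxidase in the blocked edgeR fit (vertical axis) of every tested gene in 5 lists of nucleotide and mechanical signalling genes (horizontal axis), with genes past an adjusted p of 0.05 in red, the 10 members as purple diamonds where tested, other genes in grey and a bar at each list's median. Red points are above 0 among ATP release and mechanosensory genes and on both sides among nucleotide breakdown and calcium signalling genes, and none is a receptor.

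Of 21 nucleotide and adenosine receptors 9 were tested and 0 passed in either direction, beside 14.5% of all genes. Their median log2 change was -0.13 (-0.01 over all genes). ADORA2B, at 27.1 FPKM, was the most abundant of them. The 12 receptors not tested, among them P2RY1, P2RY4 and ADORA2A, had at most 15 counts in any library.

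In the ATP release list 3 of 14 tested genes rose and 0 fell, beside 7.51% and 6.97% of all genes. Its median log2 change was 0.29 (-0.01 over all genes). PANX2, a pannexin related to PANX1, was at 9, 14.1, 6.85 and 10.03 CPM in treated cultures, against 3.37, 5.31, 4.65 and 5.96 CPM in controls. All treated libraries lay above all controls, as in 2.42% of genes tested, and the log2 change was 1.04 (SE 0.19, blocked edgeR adjusted p = 0.000875). LRRC8A, the obligatory subunit of the volume-regulated anion channel, was the most abundant of the list and averaged 156.4 ± 43.5 CPM in treated cultures and 87.7 ± 26.2 CPM in controls (SD, n = 4 each), a log2 change of 0.84 (SE 0.14, blocked edgeR adjusted p = 0.000422). Its partner LRRC8B rose by a log2 change of 0.68 (adjusted p = 0.00233), with all treated libraries above all controls. LRRC8C (0.50, adjusted p = 0.066), LRRC8D (0.30, adjusted p = 0.169) and LRRC8E (0.41, adjusted p = 0.431) did not pass. SLC17A9, the vesicular nucleotide transporter, had at most 4 counts in any library.

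In the nucleotide breakdown and adenosine list 2 of 16 tested genes rose and 2 fell, beside 7.51% and 6.97% of all genes. Its median log2 change was -0.09 (-0.01 over all genes). ENTPD2, which hydrolyses ATP to ADP at the cell surface, averaged 15.7 ± 3.21 CPM in treated cultures and 10.8 ± 2.74 CPM in controls (SD, n = 4 each) and rose by a log2 change of 0.56 (SE 0.15, blocked edgeR adjusted p = 0.0154), a call that the term for the replicate sets removed (adjusted p = 0.0943). ENTPD8, a further ectonucleotidase, was at 1.96, 1.65, 3.03 and 2.58 CPM in treated cultures, against 4.93, 4.52, 4.54 and 3.70 CPM in controls, and fell (log2 change -0.97, SE 0.24, adjusted p = 0.00785). All its treated libraries lay below all controls, as in 2.60% of genes tested. DPP4, a surface peptidase that also binds adenosine deaminase, was at 2.49, 3.42, 12.1 and 9.53 CPM in treated cultures, against 9.21, 8.85, 18.1 and 15.9 CPM in controls. It fell (log2 change -1.11, SE 0.19, adjusted p = 0.000478), lower in each number although the groups overlap. SLC28A3, a concentrative nucleoside transporter, rose (log2 change 0.88, adjusted p = 0.0163), a call lost without replicate 1, 3 or 4. ADK, the kinase that returns adenosine to AMP inside the cell and the most abundant of the list, did not pass in the blocked edgeR fit (log2 change -0.43, adjusted p = 0.0702), while DESeq2 with the block called it lower (adjusted p = 0.023).

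In the mechanosensory and TRP channel list 3 of 20 tested genes rose and 0 fell, beside 7.51% and 6.97% of all genes. Its median log2 change was 0.21 (-0.01 over all genes), and PIEZO1 was the most abundant at 14.4 FPKM. TRPV3, a warmth-sensitive channel of epithelia, was at 4.65, 4.98, 2.48 and 3.36 CPM in treated cultures, against 3.80, 3.03, 0.609 and 1.01 CPM in controls, and rose (log2 change 1.05, SE 0.27, blocked edgeR adjusted p = 0.011). ANO1, a calcium-activated chloride channel, averaged 3.47 ± 0.65 CPM in treated cultures and 1.79 ± 0.75 CPM in controls (SD, n = 4 each) and rose (1.00, SE 0.28, adjusted p = 0.0177), which did not pass with that term (adjusted p = 0.0522). PKD1, the large polycystin of primary cilia, rose (0.69, adjusted p = 0.00228), but it shares sequence with pseudogenes that also hold counts (115 to 1292 per library for PKD1P6), and its value is uncertain. PIEZO2, the touch channel of sensory cells, was at 0.697 CPM in treated cultures and 0.939 CPM in controls and did not pass (adjusted p = 0.528).

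Downstream of the receptors, 3 of 18 tested calcium signalling genes rose and 1 fell, beside 7.51% and 6.97% of all genes. Their median log2 change was 0.24 (-0.01 over all genes). ITPR3, an IP3-gated calcium release channel of the endoplasmic reticulum, was at 101.3, 155.0, 76.5 and 65.3 CPM in treated cultures, against 56.3, 91.9, 28.9 and 46.8 CPM in controls. Each treated library was above its control and the log2 change was 0.87 (SE 0.15, blocked edgeR adjusted p = 0.000488). ITPR1, of the same family, rose (0.61, adjusted p = 0.0195), and so did STIM1, the sensor of stored calcium (0.43, adjusted p = 0.035). The STIM1 call was lost without any 1 replicate number and the ITPR1 call without replicate 1, 2 or 4. Both calls were lost with the offset for gene length (adjusted p = 0.256 and 0.083) and with the term for the replicate sets (adjusted p = 0.0613 and 0.0955). PLCB4, a phospholipase that makes IP3, was at 6.34, 6.23, 5.55 and 6.402 CPM in treated cultures, against 7.91, 9.04, 9.57 and 10.8 CPM in controls, and fell (log2 change -0.60, SE 0.18, adjusted p = 0.0224). All its treated libraries lay below all controls. The PLCB4 call was lost under total-count scaling (adjusted p = 0.0883) and without replicate 2, 3 or 4. GNAS, the stimulatory G protein used by ADORA2B and the most abundant of the list, did not pass (0.24, adjusted p = 0.387).

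In the authors' deposited table the 10 members had adjusted p-values from 0.667 for P2RX5 (log2 change 0.47) to 0.991 for TRPM7 (log2 change 0.02), made from the same 8 libraries.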

How the data were processed

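Counts per gene are the authors' deposited whole numbers, not normalised, made with HISAT2 2.0.5 and featureCounts 1.5.0-p3 on GRCh38.p13, per the submitters' processing notes, which also name DESeq2 1.20.0. The deposited FPKM values are the authors' own, as are, in their comparison table, the size-factor-normalised signal, the log2 fold change and the p-values. The strand and the treatment of shared reads are not given in the sources used here. All per-sample columns were mapped by library name.

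Counts were tested with edgeR 4.0.16 in R 4.3.3 (quasi-likelihood, TMM, filterByExpr with a minimum count of 10, Benjamini-Hochberg over all 17413 genes kept, threshold 0.05). The group was the only term. A fit blocked on replicate number stands beside it, by a rule that uses the data and not the labels. All 4 same-number correlations of deviations from the group means (log2 CPM, prior count 2) were over 0.1 (0.532, 0.678, 0.59 and 0.503). Different numbers inside a replicate set also correlated at 0.443 to 0.652, so this rule cannot tell a shared number from a shared set. DESeq2 1.42.0 was an alternative. A member left out by the filter, or with a median count under 10 in both groups, was called too low to judge. The fits were tested on simulated counts. Libraries of 1 group always differed by more than sampling noise (chi-square over degrees of freedom 9.98 to 227). The titles call the libraries biological replicates, and beyond this and the design text's wording the labels do not say that cultures were independent. The p-values without a block thus set the group difference against the spread between these libraries, which includes the difference between replicate sets. Those of the blocked fit set it against the spread left after differences between replicate numbers are removed. Libraries inside a set resembled each other in both groups, so neither fit is known to rest on independent cultures. Members and lists were chosen with earlier results of these data known. Named genes were all 10 members, the called genes of each list (at most 6) and its gene of highest FPKM.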

Additional observations from a re-analysis of the deposited data

How the results depend on the processing

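None of the 8 tested members passed an adjusted p of 0.05 in any of the 28 settings run, and neither did TRPV4 or P2RX7 in the settings that kept them. ADORA2B, PANX1, P2RY2, NT5E and P2RX5 kept their direction in all 28, but not their size. NT5E ran from 0.0130 (without control 1) to 0.509 (without control 4), PANX1 from -0.389 (without control 2) to -0.0780 (without control 3), ADORA2B from -0.359 (without treated 3) to -0.0882 (without treated 2), P2RY2 from -0.230 (without control 3) to -0.0248 (total counts with the block), and P2RX5 from 0.307 (without control 3) to 0.728 (without replicate 4, with the set term, which fits replicates 1 and 2 against 3 and 4). TRPM7 reversed with the length offset (log2 change -0.117), without 1 library (-0.113 and -0.0631 without control 1 or 2, -0.138 and -0.0169 without treated 3 or 4), and without replicate 1 (-0.0241 with the replicate block, -0.0197 with the set term). PIEZO1 reversed without control 3 (-0.00804) or treated 2 (-0.00192), P2RX4 with the length offset (-0.0266) or without treated 1 (-0.0112), and TRPV4 without replicate 2 (0.342 with the block, 0.408 with the set term). Other leave-outs put PIEZO1 as high as 0.481, TRPM7 at 0.196 and P2RX4 at 0.204. Leaving out replicate 4 with the block put P2RX5 at an adjusted p of 0.0605, the lowest of any member in those 4 fits.

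Against 0 genes in either direction without a block, edgeR called 1308 higher and 1213 lower with the replicate block, and 648 and 534 with the set term. DESeq2 called 38 and 50 without and 1209 and 1431 with the block. With the block, RLE scaling gave 1239 and 1329, total counts 1675 and 535 (median log2 change of all genes 0.101), no filter 1317 and 976, and the length offset 1020 and 1174. No filter without a block gave 18 and 16. Without replicates 1, 2, 3 and 4 in turn, the block gave 917, 864, 593 and 978 higher and 717, 638, 507 and 908 lower, and the set term, a choice made after seeing the data, 1385, 1151, 63 and 354 higher and 1251, 974, 62 and 289 lower. Of the 69 other pathway genes, 11 higher and 3 lower became 7 and 3 with the set term, 12 and 4 in DESeq2 with the block, 11 and 3 with RLE, 12 and 2 with total counts, 10 and 3 with no filter, and 10 and 4 with the length offset. Without 1 number they were 7 to 9 and 1 to 2 with the block, and 1 to 9 and 1 to 5 with the set term. The cause of these shifts was not tested. The interaction called 0 members with and without the replicate block. The order of members was equal in FPKM and CPM per kilobase.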
